A study of Mus musculus with 12 samples.

Results

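Lysosomal genes were measured by RNA-seq in whole livers of WT and hepatocyte-specific *Ahr* knockout (*Ahr* HKO) mice fed a control or an ethanol diet. The group comprised 32 of the 24532 genes in the table, chosen by gene symbol: 11 proteases (9 cathepsins, legumain and tripeptidyl peptidase 1), 8 other hydrolases, 4 activator and cholesterol transfer proteins, 5 membrane proteins and 4 V-ATPase subunits or accessory proteins. All 32 were found in the table under their symbols and all 32 were among the 14038 genes with enough reads to test. The male C57BL/6 mice carried floxed *Ahr* alleles (*Ahr* fl/fl), with Cre under the albumin promoter in *Ahr* HKO and without Cre in the WT littermates, and were 10 to 12 weeks old at the start. They received a Lieber-DeCarli liquid diet for 5 weeks, either the isocaloric control (WT-con and *Ahr* HKO-con) or one with 5% ethanol by volume, 36% of calories (WT-EtOH and *Ahr* HKO-EtOH). There were 3 livers per group, 12 in all, and each library came from 1 liver. The albumin promoter directs Cre to hepatocytes, and the macrophages and endothelial cells of the liver keep the floxed gene intact. The groups ask how ethanol moved each gene within a genotype, how the genotypes differed on each diet, and whether the effect of ethanol differed between genotypes.

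Lysosomes are acidic organelles that break down material from endocytosis and autophagy, and in hepatocytes they also degrade lipid droplets and glycogen. Soluble hydrolases, which cleave proteins, glycans and lipids, work in a lumen acidified by the proton pump V-ATPase, and membrane proteins such as LAMP1 and LAMP2 line its boundary. Transcription factors of the TFEB family bind an E-box word, CACGTG, in promoters of many lysosomal genes, and mTORC1 on the lysosomal surface restrains them. Kupffer cells, the resident macrophages of the liver, are rich in lysosomes and express several cathepsins strongly.

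The E-box word was looked up in promoter windows of RefSeq (build GRCm38.p6, 250 bases before to 50 bases after each listed start), which held 28 of the 32 genes. CACGTG, which reads the same on both strands, was present for 12 of the 28 (42.9%), against 7.15% of all 32851 windows and 11.4% of the 11127 tested genes with a window. TCACGTG, the same word with 1 more base and searched on both strands, was present for 10 of them (35.7%), against 6.75% of the tested genes. The AhR core word GCGTG, which is not contained in the other words, was present on either strand for 13 (46.4%), against 53.6% of the tested genes. A match is a description of the letters only. The stretches around CACGTG, in capitals, are shown for 4 genes that differed between groups below, each in the direction of the transcript and ending before the listed start.
*Glb1*, chr9:114401000-114401065, plus strand, word at 48 to 43 bases before the start: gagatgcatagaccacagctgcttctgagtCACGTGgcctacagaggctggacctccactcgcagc
*Gaa*, chr11:119267793-119267858, plus strand, word at 140 to 135 bases before the start: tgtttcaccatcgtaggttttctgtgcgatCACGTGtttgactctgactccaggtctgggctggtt
*Ctsf*, chr19:4855056-4855121, plus strand, word at 79 to 74 bases before the start: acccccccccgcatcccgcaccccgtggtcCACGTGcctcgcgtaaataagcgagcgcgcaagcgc
*Lgmn*, chr12:102439106-102439171, minus strand, word at 49 to 44 bases before 1 of its listed starts, inside the annotated gene but outside its exons: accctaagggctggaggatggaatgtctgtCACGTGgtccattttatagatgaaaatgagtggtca
*Glb1* encodes beta-galactosidase, *Gaa* acid alpha-glucosidase, *Ctsf* the cysteine protease cathepsin F and *Lgmn* legumain, an asparaginyl endopeptidase. Their word stands in windows whose genes moved both ways: the first 3 were lower in *Ahr* HKO-con than in WT-con, and *Lgmn* was higher.

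The libraries held 46306518 to 74336255 reads on genes, and a floor of 3 counts corresponded to 0.0425 to 0.0676 CPM (CPM, reads on the gene as a share of the library total scaled by TMM), which covers counting error only. In all libraries every member was above this floor. The whole-gene count of the targeted gene was not lower in the libraries labelled as knockout: *Ahr* was at 20.1, 16.6 and 18.3 CPM in WT-con, 30.5, 20.8 and 23.5 in WT-EtOH, 65.5, 41.3 and 63.3 in the libraries labelled *Ahr* HKO-con and 41.8, 32.1 and 24.7 in those labelled *Ahr* HKO-EtOH. Cre removes exon 2, and counts over the whole gene do not separate exons and include cells without Cre, so this count does not check the labels. It was called higher in *Ahr* HKO-con than in WT-con (log2 FC 1.63 ± 0.19, adjusted *P* = 0.00167). *Cyp1a2*, a target gene of AhR, was called lower in *Ahr* HKO-con than in WT-con (−1.67 ± 0.40, adjusted *P* = 0.0191) and in *Ahr* HKO-EtOH than in WT-EtOH (−0.73 ± 0.12, adjusted *P* = 0.0457). It was also called higher with ethanol in WT (1.15 ± 0.18, adjusted *P* = 0.0142) and in *Ahr* HKO (2.10 ± 0.38, adjusted *P* = 0.00837). The *Ahr* HKO-EtOH livers (629 to 684 CPM) were all above the WT-con livers (398 to 617). Groups are given as labelled. Of 8 hepatocyte markers fixed for the check, 7 were in the table under their symbols and none was at 0. Between the *Ahr* HKO diets 4 of the 7 were called (3 higher, 1 lower, 57.1%, beside 31.2% of all tested genes). The 7 markers summed to 81091 to 111728 CPM in 11 livers and to 130195 in *Ahr* HKO-con replicate 3. The 6 stellate cell markers summed to 301 to 344 CPM in WT-EtOH and to 202 to 286 in the other livers. With ethanol in WT 2 of these 6 were called higher (33.3%, beside 4.24% of all tested genes). The 5 cholangiocyte markers summed to 476 CPM in *Ahr* HKO-con replicate 1 and 37.1 to 179.9 elsewhere. The part of these markers in the results was not tested. The 12 markers of Kupffer cells and macrophages, none at 0, summed to 639 to 806 CPM in WT-con, 610 to 1331 in WT-EtOH, 504 to 1311 in *Ahr* HKO-con and 414 to 456 in *Ahr* HKO-EtOH, with the highest sums in WT-EtOH replicate 2 and *Ahr* HKO-con replicate 1. In whole-liver RNA, fewer cells of a type and less RNA per cell cannot be told apart.

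Together the 32 genes took 0.540 to 0.566% of the reads in WT-con, 0.665 to 0.840% in WT-EtOH, 0.491 to 0.592% in *Ahr* HKO-con and 0.543 to 0.597% in *Ahr* HKO-EtOH. In these shares WT-EtOH did not overlap the other groups, but in summed CPM, which TMM scales, its replicate 3 (6156) was below *Ahr* HKO-EtOH replicate 1 (6290.1). Levels per gene length, given as the authors' FPKM in WT-con, ran from 316 ± 6.60 (SD, n = 3) for *Lamp1* to 1.15 ± 0.161 for *Gla*. *Lamp2* followed at 208 ± 9.81 FPKM, and *Psap*, *Ctsd*, *Ctsz* and *Ctsl* came next between 168 and 196, where neighbours in the order overlapped within 1 SD. At the low end, *Glb1* at 5.33 ± 0.676 and *Cd63* at 4.69 ± 1.39 FPKM also overlapped, both above *Gla*.

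**Figure D1:**
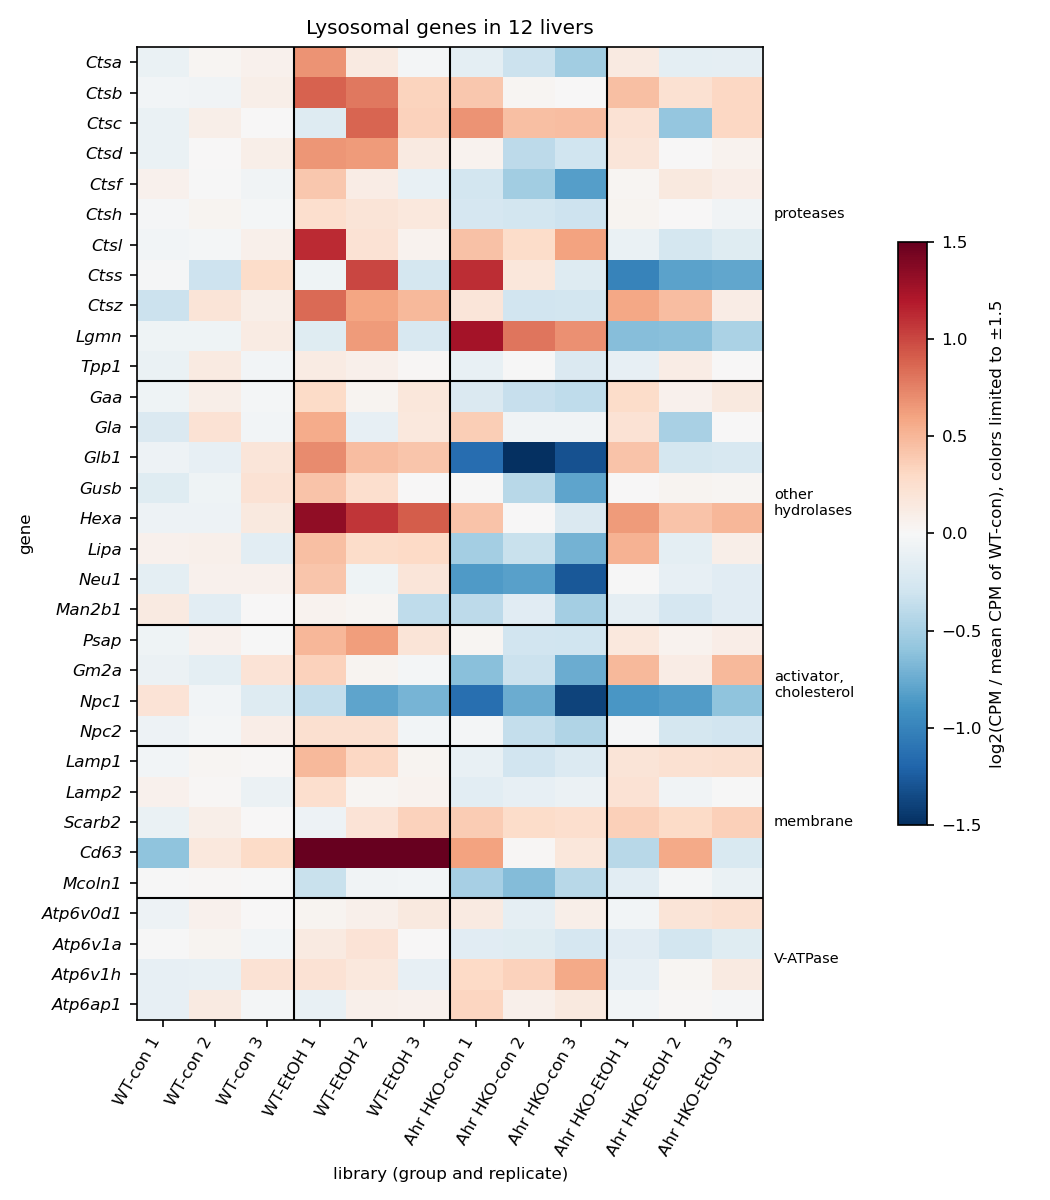
Log2 of CPM over the mean CPM of WT-con for the 32 lysosomal genes (rows, grouped by role) in the 12 livers (columns), with colors limited to ±1.5. *Cd63* is dark red in the 3 WT-EtOH livers alone, *Glb1*, *Neu1* and *Npc1* are blue in the 3 *Ahr* HKO-con livers, and *Lgmn* is red in *Ahr* HKO-con and blue in *Ahr* HKO-EtOH.

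Calls were made at an adjusted *P* value under 0.05 (edgeR quasi-likelihood test, Benjamini-Hochberg over the 14038 tested genes), and log2 FCs are given ± SE. Ethanol raised 4 of the 32 genes in WT (12.5%), *Cd63*, *Hexa*, *Ctsb* and *Glb1*, and lowered none, where 8.72% of all tested genes were called, 4.24% higher and 4.48% lower. In *Ahr* HKO, ethanol raised 8 (*Glb1*, *Gm2a*, *Neu1*, *Lipa*, *Ctsf*, *Gaa*, *Mcoln1* and *Lamp1*) and lowered 4 (*Lgmn*, *Ctss*, *Ctsl* and *Atp6v1h*), which is 37.5% of the members, where 31.2% of all tested genes were called, 15% higher and 16.1% lower. On the control diet *Ahr* HKO livers had 9 genes lower (*Glb1*, *Npc1*, *Neu1*, *Gm2a*, *Ctsf*, *Mcoln1*, *Lipa*, *Gaa* and *Ctsh*) and 4 higher (*Lgmn*, *Ctsc*, *Ctsl* and *Atp6v1h*) than WT livers, 40.6% of the members where 29.7% of all tested genes were called, 15.3% higher and 14.4% lower. On the ethanol diet 1 gene, *Cd63*, differed between genotypes, 3.12% of the members, where 1.06% of tested genes were called, 0.684% higher and 0.378% lower. By direction, 12.5% of the members rose in WT, 25% rose and 12.5% fell in *Ahr* HKO, and 28.1% were lower and 12.5% higher in *Ahr* HKO-con than in WT-con, and these shares were not tested against the background. With an FC above 1.5 required as well, the members called numbered 3, 8, 4 and 1 in this order, where 6.58%, 22%, 19.8% and 1.03% of all tested genes were called.

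The comparisons share libraries: *Ahr* HKO-con stands in the diet comparison of *Ahr* HKO and in the genotype comparison on the control diet, so a high or low *Ahr* HKO-con group moves both, in opposite directions. Across the 32 genes the median log2 FC of ethanol was 0.20 in WT and 0.23 in *Ahr* HKO, beside 0.01 and −0.02 over all tested genes. The median for *Ahr* HKO-con against WT-con was −0.19 and that for *Ahr* HKO-EtOH against WT-EtOH −0.23, beside −0.00 and −0.01. On quantile-normalized log2(FPKM + 1) the medians for ethanol were 0.13 in WT and 0.06 in *Ahr* HKO, and on the unadjusted values, where the median of all genes was 0.10 and −0.04, they were 0.33 and 0.15. Fitted log2 FCs were above 0 for 29 of 32 genes with ethanol in WT and 23 in *Ahr* HKO, and for 12 between the genotypes on the control diet and 4 on ethanol, where 51.6%, 48.6%, 49.7% and 48.7% of all tested genes were above 0. Groups did not overlap for 12 genes between the diets in WT and for 19 in *Ahr* HKO, where 32.9% and 49.8% of all tested genes had separate groups. Between genotypes they did not overlap for 18 on the control diet (47.3% of all tested genes) and for 8 on ethanol (27.9%). Leaving out 1 liver at a time gave 2 to 5 calls for ethanol in WT, with 2 without any of the WT-con livers or without WT-EtOH replicate 2, and 4 to 13 in *Ahr* HKO, with 7 and 4 without *Ahr* HKO-EtOH replicate 2 and replicate 3. It gave 6 to 10 for the genotypes on the control diet, with 6, 7 and 8 without WT-con replicates 1, 2 and 3 and 7 without *Ahr* HKO-con replicate 3. With other scaling the split of higher and lower calls for ethanol in WT was 8 and 1 (DESeq2), 3 and 1 (upper quartile) and 2 and 1 (quantile-normalized log2(FPKM + 1)), that for ethanol in *Ahr* HKO was 6 and 5 on the quantile-normalized values, and that for *Ahr* HKO-con against WT-con was 2 and 10 (upper quartile) and 5 and 7 (log2(FPKM + 1) without quantile normalization). No called log2 FC changed sign when a liver was left out, and as unlogged folds none of the members' moved by more than 1.5 times. On the log2 scale 2 of them did: the FC of *Ctss* between the *Ahr* HKO diets went from −1.32 to −0.85 without *Ahr* HKO-con replicate 1 and the interaction of *Ctsl* from −1.17 to −0.77 without WT-EtOH replicate 1, and both remained called.

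**Figure D2:**
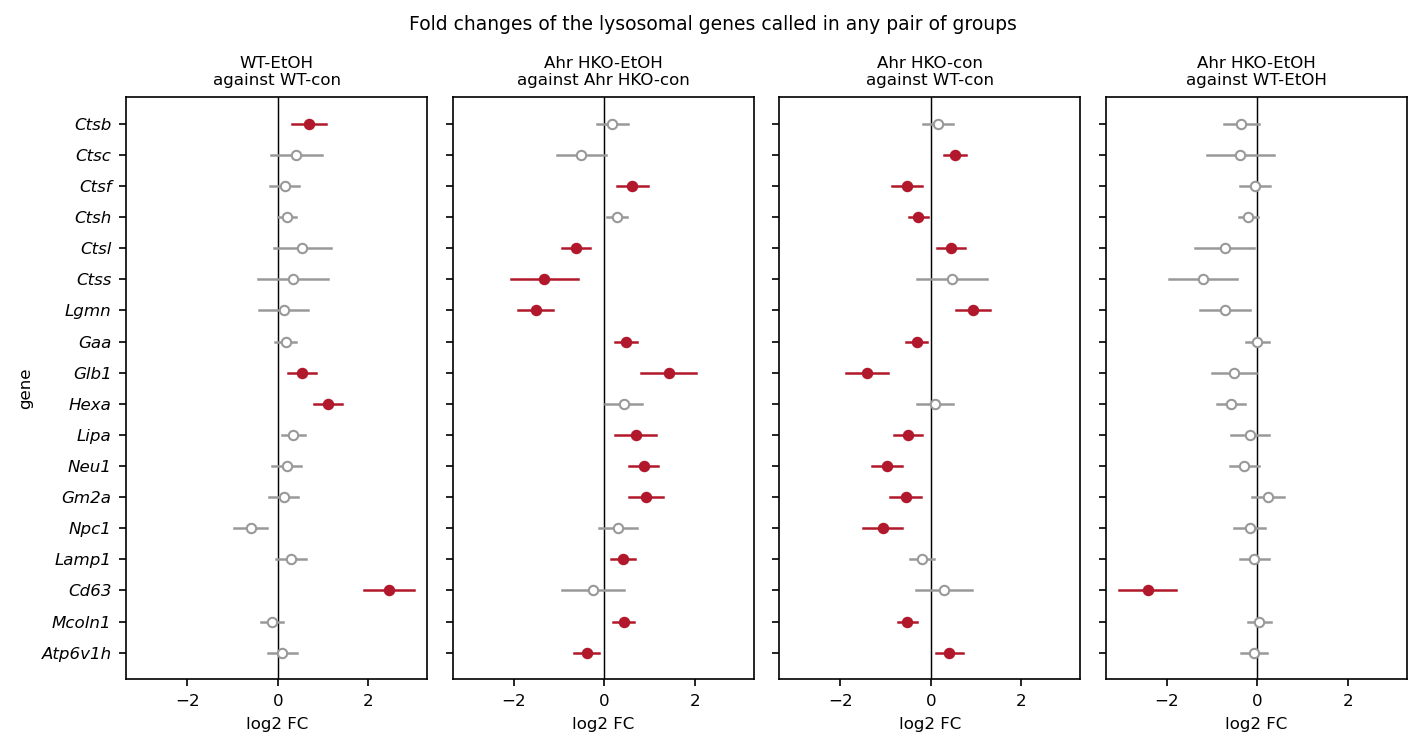
Log2 FC (points) and 95% confidence interval (lines) in 4 comparisons for the 18 lysosomal genes called in at least 1 of them, with filled red points for called genes. The panels hold 4, 12, 13 and 1 called genes, and *Cd63* is the point farthest from 0 in the panels that hold WT-EtOH.

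Among the membrane proteins, the gene with the widest separation was *Cd63*, a tetraspanin of late endosomes, lysosomes and exosomes (chromosome 10, 128896231 to 128912822, GRCm38). It was at 2.97, 5.03 and 5.52 CPM in WT-con and 27.8, 22.1 and 24.6 in WT-EtOH. In the *Ahr* HKO livers it was at 6.83, 4.57 and 5.08 CPM on the control diet and 3.37, 6.67 and 3.83 on ethanol. The 3 WT-EtOH livers were thus above the other 9 with no overlap, and the other groups overlapped each other. Ethanol raised *Cd63* in WT by a log2 FC of 2.46 ± 0.23 (adjusted *P* = 0.0024), a 5.49-fold difference that remained called without any 1 liver. On ethanol, *Ahr* HKO was lower than WT by 5.35 times (log2 FC −2.42 ± 0.27, adjusted *P* = 0.0197). That call was lost without WT-EtOH replicate 1 (adjusted *P* = 0.0807), without WT-EtOH replicate 2 (0.0635) or without *Ahr* HKO-EtOH replicate 3 (0.0902). The diet effects differed between the genotypes in 1 fit of all 12 libraries, with an interaction (the log2 FC of ethanol in *Ahr* HKO minus that in WT) of −2.70 ± 0.40 (adjusted *P* = 0.00149). Of the 3991 stretches of 50 bases in annotated *Cd63* transcripts, 442 also occur on either strand in other genes. Most of them are in the pseudogene *Cd63-ps*, and how reads shared with it were counted is not given in the sources used here.

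*Mcoln1*, the lysosomal calcium channel TRPML1, was at 37.4, 38.2 and 37.5 CPM in WT-con and 26.6, 23.98 and 28.3 in *Ahr* HKO-con. On ethanol it was at 29.9, 36.3 and 36.7 in WT and 33.9, 36.9 and 35.1 in *Ahr* HKO. The *Ahr* HKO-con livers were below all others. It was lower in *Ahr* HKO-con than in WT-con (log2 FC −0.52 ± 0.09, adjusted *P* = 0.00653) and rose with ethanol in *Ahr* HKO (0.42 ± 0.10, adjusted *P* = 0.0163), a call lost without *Ahr* HKO-EtOH replicate 2 (adjusted *P* = 0.0561) or replicate 3 (0.0569). Its interaction was 0.56 ± 0.14 (adjusted *P* = 0.0148), called without any 1 liver but not on log2(FPKM + 1) without quantile normalization (adjusted *P* = 0.147).

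*Lamp1*, the most abundant member, was at 725, 759.6 and 753 CPM in WT-con, 1042, 926 and 766 in WT-EtOH, 690.2, 609.8 and 649 in *Ahr* HKO-con and 855, 873 and 878 in *Ahr* HKO-EtOH. The *Ahr* HKO-con livers were the lowest of the 4 groups and did not overlap any of them. Ethanol raised it in *Ahr* HKO (log2 FC 0.42 ± 0.11, adjusted *P* = 0.0288), a call lost without *Ahr* HKO-con replicate 2 or any 1 of the *Ahr* HKO-EtOH livers (adjusted *P* of 0.0601 to 0.102). *Lamp2*, which serves chaperone-mediated autophagy as well as the lysosomal boundary, was called in no comparison, with 520.1, 499.9 and 466 CPM in WT-con, 589, 507 and 515 in WT-EtOH, 443, 456 and 467 in *Ahr* HKO-con and 575, 479 and 494 in *Ahr* HKO-EtOH. Of the pairs of groups compared, only the *Ahr* HKO diets did not overlap. The WT-EtOH livers were also all above the *Ahr* HKO-con livers, a pair that was not compared. *Scarb2*, which encodes LIMP-2, the carrier of glucocerebrosidase, was not called either, at 178 to 249 CPM over the 12 livers.

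Of the 8 hydrolases other than proteases, ethanol raised 2 in WT (25%) and 4 in *Ahr* HKO (50%), and 4 were lower in *Ahr* HKO-con than in WT-con (50%). Of all tested genes 8.72%, 31.2% and 29.7% were called in either direction. In the same direction as these members they were 4.24%, 15% and 14.4%. *Glb1*, which encodes beta-galactosidase (chromosome 9, 114401078 to 114474379), was at 12.8, 12.4 and 15.2 CPM in WT-con and 6.11, 3.69 and 5.42 in *Ahr* HKO-con. With ethanol it was at 22.1, 18.5 and 17.9 in WT and 18.1, 11.2 and 11.4 in *Ahr* HKO. The 3 *Ahr* HKO-con livers were below the other 9, and the 3 WT-EtOH livers were above both control groups. *Glb1* was 2.65 times lower in *Ahr* HKO-con than in WT-con (log2 FC −1.41 ± 0.20, adjusted *P* = 0.00328) and rose 2.68-fold with ethanol in *Ahr* HKO (1.42 ± 0.26, adjusted *P* = 0.00856). In WT its rise was smaller, 0.53 ± 0.13 (adjusted *P* = 0.0475), and that call was lost without any 1 of the 6 livers (adjusted *P* of 0.0667 to 0.151). The difference between the diet effects was 0.89 ± 0.31, with an adjusted *P* of 0.058 that missed the threshold.

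*Neu1*, the lysosomal sialidase (chromosome 17, 34931253 to 34937297), was at 45.5, 52.4 and 52.7 CPM in WT-con and 27.8, 28.5 and 20.7 in *Ahr* HKO-con. It was at 67.05, 48.02 and 57.1 CPM in WT-EtOH and 50.1, 46.1 and 44.6 in *Ahr* HKO-EtOH. The *Ahr* HKO-con group alone stood apart, below the other 9 livers. Its log2 FC was −0.97 ± 0.14 for *Ahr* HKO-con against WT-con (adjusted *P* = 0.0035) and 0.87 ± 0.14 for ethanol in *Ahr* HKO (adjusted *P* = 0.00553), both called without any 1 liver. The interaction was 0.68 ± 0.20 (adjusted *P* = 0.0344), and its call was lost in 8 of 12 fits that left out 1 liver, those without WT-con replicates 2 and 3, WT-EtOH replicates 2 and 3, *Ahr* HKO-con replicate 3 and each *Ahr* HKO-EtOH liver (adjusted *P* of 0.053 to 0.0737).

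*Hexa*, the alpha subunit of beta-hexosaminidase, which removes the terminal sugar of ganglioside GM2, was at 47.6, 47.6 and 55.4 CPM in WT-con and 126, 105 and 94.1 in WT-EtOH (chromosome 9, 59539540 to 59565109). In *Ahr* HKO it was at 67.4, 50.6 and 43.1 on the control diet and 78.1, 67.7 and 70.7 on ethanol. The WT-EtOH livers were the highest of the 12, and the *Ahr* HKO-EtOH livers lay between them and the control groups. Ethanol raised *Hexa* in WT by 2.16-fold (log2 FC 1.11 ± 0.13, adjusted *P* = 0.00517), a call that held without any 1 liver. Its interaction of −0.68 ± 0.23 had an adjusted *P* of 0.05 and was lost in 10 of 12 fits without 1 liver, all but those without WT-EtOH replicate 3 or *Ahr* HKO-con replicate 3 (adjusted *P* of 0.057 to 0.104).

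**Figure D3:**
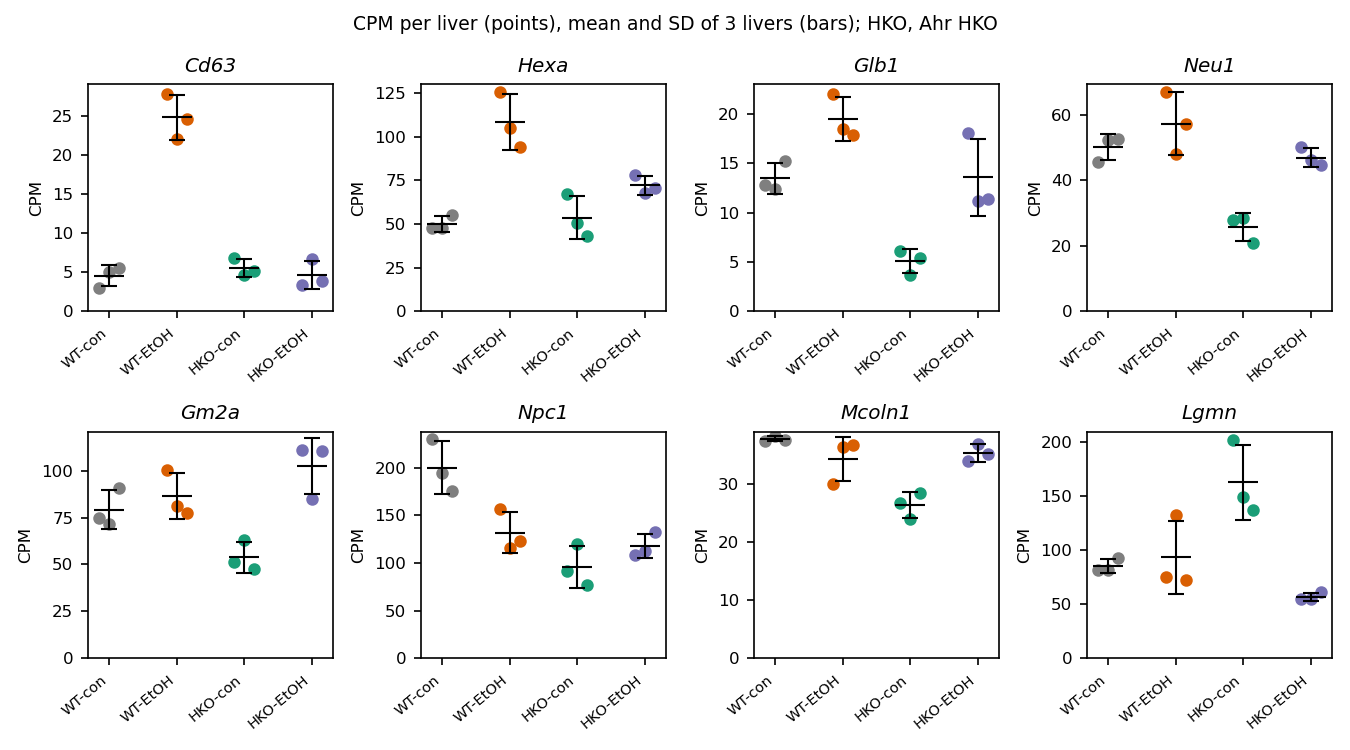
CPM of 8 lysosomal genes in each liver (points, 3 per group) with the mean and SD of each group (bars), on axes that start at 0. *Cd63* and *Hexa* are highest in WT-EtOH, *Glb1*, *Neu1*, *Gm2a* and *Mcoln1* are lowest in *Ahr* HKO-con, *Npc1* is highest in WT-con, and *Lgmn* is highest in *Ahr* HKO-con and lowest in *Ahr* HKO-EtOH.

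*Lipa*, the acid lipase that hydrolyses cholesteryl esters and triglycerides, was at 184, 187 and 158 CPM in WT-con and 241, 213 and 217 in WT-EtOH. In *Ahr* HKO it was at 124, 140.3 and 108 on the control diet and 254, 159 and 187 on ethanol. The *Ahr* HKO-con livers were the lowest of the 12, and replicate 1 of *Ahr* HKO-EtOH was the highest. It was lower in *Ahr* HKO-con than in WT-con (log2 FC −0.51 ± 0.13, adjusted *P* = 0.0245), which was lost without WT-con replicate 1 or 2 or *Ahr* HKO-con replicate 1 or 3 (adjusted *P* of 0.0505 to 0.0863). It rose with ethanol in *Ahr* HKO (0.69 ± 0.19, adjusted *P* = 0.0335), which was lost without any liver but *Ahr* HKO-EtOH replicate 2 (adjusted *P* of 0.0503 to 0.0831). In WT the groups did not overlap, with an adjusted *P* of 0.0961.

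*Gaa*, the alpha-glucosidase that degrades lysosomal glycogen, was at 107, 119 and 109 CPM in WT-con, 136, 115 and 126 in WT-EtOH, 95.7, 88.1 and 85.5 in *Ahr* HKO-con and 135, 117 and 123 in *Ahr* HKO-EtOH. Its *Ahr* HKO-con livers were below the other 9. The log2 FC was −0.31 ± 0.10 for *Ahr* HKO-con against WT-con (adjusted *P* = 0.0453, lost without any 1 of the 6 livers, 0.0543 to 0.152) and 0.48 ± 0.11 for ethanol in *Ahr* HKO (adjusted *P* = 0.0153, lost without *Ahr* HKO-EtOH replicate 3, 0.0523). The other hydrolases passed no test: *Gusb*, beta-glucuronidase, lay between 16.6 and 38.4 CPM, *Man2b1*, lysosomal alpha-mannosidase, between 83.7 and 131, and *Gla*, alpha-galactosidase A, between 2.64 and 5.44.

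Of the 4 genes in the activator and cholesterol transfer group, 2 were lower in *Ahr* HKO-con than in WT-con (50%). Of all tested genes 29.7% were called there, 14.4% lower. Of these 2 genes, 1 rose with ethanol in *Ahr* HKO (25% of the group), where 31.2% of all tested genes were called, 15% higher. *Gm2a*, the activator that presents ganglioside GM2 to hexosaminidase (chromosome 11, 55097985 to 55113029), was at 74.6, 71.6 and 90.9 CPM in WT-con and 100.4, 81.2 and 77.6 in WT-EtOH. It was at 51.3, 63.2 and 47.3 in *Ahr* HKO-con and 111, 85.1 and 111 in *Ahr* HKO-EtOH. The *Ahr* HKO-con livers were below all others, and the other 3 groups overlapped. *Gm2a* rose with ethanol in *Ahr* HKO by 1.90-fold (log2 FC 0.92 ± 0.16, adjusted *P* = 0.007), and this held without any 1 liver. Against WT-con, *Ahr* HKO-con was lower (−0.55 ± 0.15, adjusted *P* = 0.0275), a call lost without WT-con replicate 1 or 3 or *Ahr* HKO-con replicate 1 or 3 (0.0592 to 0.0884). The interaction was 0.79 ± 0.22 (adjusted *P* = 0.0256), lost in 7 of 12 fits, those without WT-con replicate 3, WT-EtOH replicates 2 and 3, *Ahr* HKO-con replicates 1 and 3 and *Ahr* HKO-EtOH replicates 1 and 3 (0.0512 to 0.0619).

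*Npc1*, the membrane protein that exports cholesterol from lysosomes, was at 229.9, 195 and 176 CPM in WT-con and 157, 116 and 123 in WT-EtOH. In *Ahr* HKO it was at 91.4, 119 and 76.6 on the control diet and 109, 112 and 132 on ethanol. The WT-con livers were the highest 3 of the 12. *Npc1* was 2.09 times lower in *Ahr* HKO-con than in WT-con (log2 FC −1.06 ± 0.18, adjusted *P* = 0.00639), which held without any 1 liver. With ethanol in WT its log2 FC was −0.60 ± 0.15 with separate groups and an adjusted *P* of 0.0543 that missed the threshold. The interaction was 0.90 ± 0.25 (adjusted *P* = 0.0254), lost without WT-con replicate 1, WT-EtOH replicate 2 or 3, *Ahr* HKO-con replicate 1 or *Ahr* HKO-EtOH replicate 3 (0.0504 to 0.0623). *Npc2*, its soluble partner, lay between 52.6 and 85.2 CPM and was not called, and *Psap*, the precursor of the saposins that activate sphingolipid hydrolases, was at 526, 576 and 548 CPM in WT-con and 775, 848 and 631 in WT-EtOH (adjusted *P* = 0.0868). The *Psap* groups on the 2 diets did not overlap in WT.

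Of the 11 proteases, 1 rose and 3 fell between the *Ahr* HKO diets (36.4%, beside 31.2% of all tested genes), and between the genotypes on the control diet 3 were higher and 2 lower (45.5%, beside 29.7%). *Lgmn*, which activates other proteases by cleaving after asparagine (chromosome 12, 102394082 to 102439728), was at 81.8, 81.5 and 92.6 CPM in WT-con and 75.5, 132 and 72.4 in WT-EtOH. It was at 202, 149 and 137 in *Ahr* HKO-con and 54.9, 55.3 and 61.4 in *Ahr* HKO-EtOH. Every *Ahr* HKO-con liver was above all others, and every *Ahr* HKO-EtOH liver was below all others. Ethanol lowered *Lgmn* 2.85-fold in *Ahr* HKO (log2 FC −1.51 ± 0.16, adjusted *P* = 0.00222), *Ahr* HKO-con was 1.91 times higher than WT-con (0.93 ± 0.16, adjusted *P* = 0.00617), and the interaction was −1.64 ± 0.31 (adjusted *P* = 0.00444). These 3 calls held without any 1 liver.

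*Ctss*, cathepsin S, which trims the invariant chain in antigen-presenting cells, was at 42.5, 34.8 and 52.2 CPM in WT-con and 41.2, 86.6 and 35.98 in WT-EtOH. In *Ahr* HKO it was at 92.9, 48.6 and 37.7 on the control diet and 21.6, 24.7 and 25.3 on ethanol. WT-EtOH replicate 2 and *Ahr* HKO-con replicate 1 were the highest livers, the same 2 as for the summed macrophage markers, and the *Ahr* HKO-EtOH livers were the lowest. Ethanol lowered *Ctss* in *Ahr* HKO (log2 FC −1.32 ± 0.31, adjusted *P* = 0.0197), which was lost without *Ahr* HKO-EtOH replicate 1 (adjusted *P* = 0.0606), 2 (0.0546) or 3 (0.0576). Its interaction was −1.66 ± 0.51 (adjusted *P* = 0.0383), lost in 7 of 12 fits, those without WT-con replicates 1 and 2, WT-EtOH replicate 2, *Ahr* HKO-con replicate 1 and each *Ahr* HKO-EtOH liver (0.0646 to 0.0867).

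Between the *Ahr* HKO diets, 11 of the 12 macrophage markers were called lower with ethanol (median log2 FC over the 12, −1.19), as were 4 of 10 markers of monocytes and other leukocytes and 3 of 6 of sinusoidal endothelial cells, where 16.1% of all tested genes were called lower. The summed leukocyte markers were at 147 to 431 CPM in *Ahr* HKO-con and 85.5 to 112 in *Ahr* HKO-EtOH. Relative to the mean of WT-con, the summed macrophage markers were at 0.567 to 0.626 in *Ahr* HKO-EtOH, *Ctss* at 0.501 to 0.585 and *Lgmn* at 0.643 to 0.72. In *Ahr* HKO-con replicate 3 the macrophage markers were at 0.691 of the WT-con mean while *Lgmn* was at 1.61 and *Ctss* at 0.872. The part of these markers in the results for *Ctss*, *Lgmn* and *Ctsl* was not tested.

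**Figure D4:**
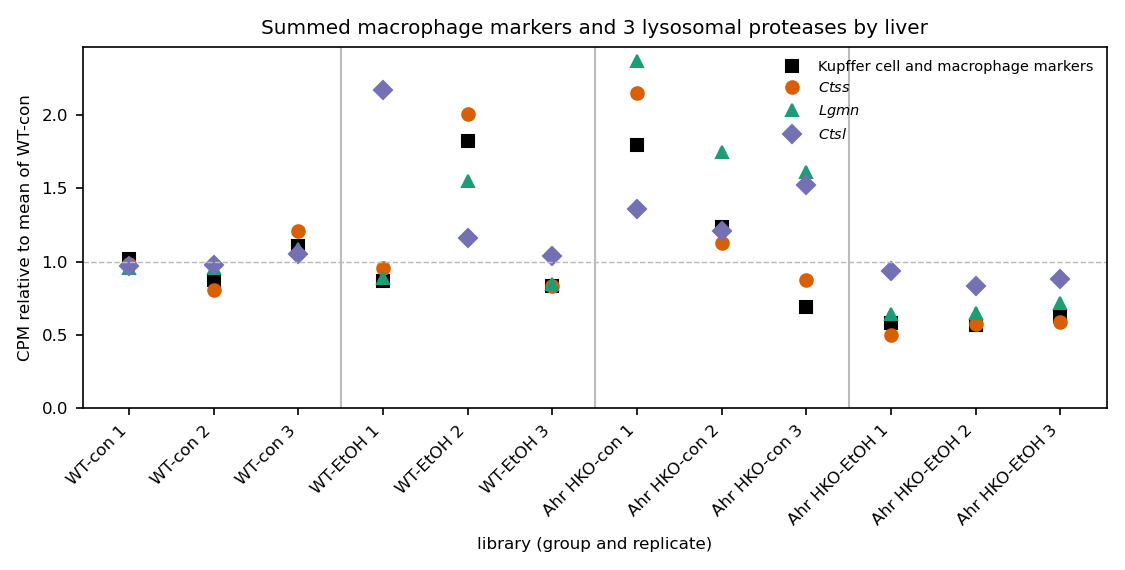
Summed CPM of 12 macrophage markers and CPM of *Ctss*, *Lgmn* and *Ctsl* in each of the 12 livers, each divided by its mean in WT-con (dashed line at 1). *Ctss* and the markers are highest in WT-EtOH replicate 2 and *Ahr* HKO-con replicate 1, all 4 measures are below 1 in the *Ahr* HKO-EtOH livers, and *Ctsl* alone is high in WT-EtOH replicate 1.

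*Ctsl*, cathepsin L, a broad endopeptidase of lysosomes, was at 606, 611 and 659.8 CPM in WT-con and 1360.1, 728 and 649.6 in WT-EtOH. In *Ahr* HKO it was at 849.7, 756 and 953 CPM on the control diet and 585, 520.2 and 551 on ethanol. WT-EtOH replicate 1 was the highest liver, and the *Ahr* HKO-EtOH livers were the lowest. It was higher in *Ahr* HKO-con than in WT-con (log2 FC 0.45 ± 0.13, adjusted *P* = 0.0374), a call lost without any liver but *Ahr* HKO-con replicate 2 (0.0683 to 0.125), and fell with ethanol in *Ahr* HKO (−0.63 ± 0.13, adjusted *P* = 0.0128), lost without *Ahr* HKO-EtOH replicate 3 (0.0552). The interaction was −1.17 ± 0.33 (adjusted *P* = 0.0257), lost without WT-con replicate 1 or 2 or *Ahr* HKO-EtOH replicate 2 or 3 (0.0538 to 0.0562), and ranged from −1.37 to −0.77 over the 12 fits. Of the 50-base stretches of *Ctsl* transcripts, 26.3% also occur on either strand in other genes, chiefly an antisense gene and a processed pseudogene. This share was 32.4% for *Ctsd*, with the protein-coding gene *Gm49369*. It was 12.1% for *Ctsb*, 11.6% for *Ctsa* and 10.6% for *Hexa*.

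*Ctsb*, the cysteine protease cathepsin B, was at 514, 512 and 562 CPM in WT-con and 978, 913 and 669 in WT-EtOH. It was at 698, 541 and 533 in *Ahr* HKO-con and 726, 622 and 657 in *Ahr* HKO-EtOH. All WT-EtOH livers were above the WT-con livers, and the *Ahr* HKO groups overlapped. Ethanol raised it in WT by 1.61-fold (log2 FC 0.69 ± 0.16, adjusted *P* = 0.0417), which was lost without any liver but WT-EtOH replicate 3 (0.0762 to 0.137). *Ctsd*, the aspartic protease cathepsin D, was at 351, 379.9 and 400.3 CPM in WT-con, 597, 586 and 413 in WT-EtOH, 390.2, 287 and 306 in *Ahr* HKO-con and 429, 379 and 391 in *Ahr* HKO-EtOH. The WT diets did not overlap, with a log2 FC of 0.50 ± 0.16 that missed the threshold (adjusted *P* = 0.102).

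*Ctsf*, cathepsin F, was at 25.3, 24.1 and 23.3 CPM in WT-con, 32.2, 26.2 and 22.4 in WT-EtOH, 19.99, 16.9 and 13.7 in *Ahr* HKO-con and 24.8, 26.8 and 26.02 in *Ahr* HKO-EtOH. The *Ahr* HKO-con livers were the lowest 3 of the 12. Its log2 FC was −0.52 ± 0.14 for *Ahr* HKO-con against WT-con (adjusted *P* = 0.0292), lost without any WT-con liver or *Ahr* HKO-con replicate 2 (0.0674 to 0.0876), and 0.62 ± 0.14 for ethanol in *Ahr* HKO (adjusted *P* = 0.0181), lost without *Ahr* HKO-con replicate 2 or *Ahr* HKO-EtOH replicate 2 or 3 (0.0528 to 0.0577). *Ctsc*, the dipeptidyl peptidase that activates granule proteases, was at 78.1, 88.5 and 83.5 CPM in WT-con and 133, 114 and 115 in *Ahr* HKO-con, with no overlap (log2 FC 0.54 ± 0.11, adjusted *P* = 0.0101), a call that held without any 1 liver and was lost with all 12 libraries in 1 fit (adjusted *P* = 0.138). In WT-EtOH it was at 73.1, 153 and 106 and in *Ahr* HKO-EtOH at 96.5, 55.9 and 103 CPM. The highest liver for *Ctsc* was WT-EtOH replicate 2, which also had the highest macrophage markers.

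*Ctsh*, an aminopeptidase and endopeptidase, was at 191, 198 and 189.9 CPM in WT-con and 162, 159 and 156 in *Ahr* HKO-con (log2 FC −0.28 ± 0.09, adjusted *P* = 0.0495), a small difference between separate groups whose call was lost without any 1 of the 6 livers (0.0748 to 0.156). The remaining proteases were called in no comparison. *Ctsz*, a carboxypeptidase, was at 216, 309 and 288 CPM in WT-con and 489, 409 and 379 in WT-EtOH, which did not overlap (adjusted *P* = 0.0548). *Ctsa*, the protective protein of beta-galactosidase and sialidase, lay between 102 and 232 CPM, with its highest value in WT-EtOH replicate 1. *Tpp1*, tripeptidyl peptidase 1, lay between 76.6 and 97.6.

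Of the V-ATPase genes, 1 of 4 was called in any comparison. That is 25% between the *Ahr* HKO diets, beside 31.2% of all tested genes. Between the genotypes on the control diet it is also 25%, beside 29.7%. *Atp6v1h*, a regulatory subunit of the cytosolic sector, was at 35.1, 35.5 and 44.4 CPM in WT-con, 47.2, 48.8 and 56.8 in *Ahr* HKO-con and 35.2, 39.2 and 42.03 in *Ahr* HKO-EtOH. In WT-EtOH it was at 44.7, 42.9 and 35.2, and the *Ahr* HKO-con livers were above those of the other 3 groups. It was higher in *Ahr* HKO-con than in WT-con (log2 FC 0.41 ± 0.13, adjusted *P* = 0.0486), lost without any liver but WT-con replicate 3 (0.0619 to 0.148), and fell with ethanol in *Ahr* HKO (−0.39 ± 0.11, adjusted *P* = 0.0382), lost without any 1 of the 6 (0.05 to 0.104). *Atp6v1a*, the catalytic subunit, lay between 35.9 and 50.1 CPM, *Atp6v0d1* of the membrane sector between 65.8 and 84.1, and the accessory protein gene *Atp6ap1* between 67.2 and 91.5.

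For 9 of the 32 genes (28.1%) the effect of ethanol differed between the genotypes, where 22.3% of all tested genes did, 11.2% with a positive and 11.1% with a negative term. With a term above 1.5-fold there were 8 such members, where 18.7% of tested genes were called. The interaction was positive for *Npc1*, *Gm2a*, *Neu1* and *Mcoln1* and negative for *Cd63*, *Ctss*, *Lgmn*, *Ctsl* and *Hexa*. The calls of *Cd63*, *Lgmn* and *Mcoln1* held without any 1 liver, and the count ran from 3 to 10, with 3 without *Ahr* HKO-EtOH replicate 3, 4 without WT-EtOH replicate 2, and 5 without WT-con replicate 1 or 2 or *Ahr* HKO-EtOH replicate 1. On log2(FPKM + 1) values without quantile normalization, where the median of all genes was shifted by −0.14, 0 members were positive and 8 negative. In the main fit 7 of the 12 macrophage markers (58.3%) were called with a negative interaction and 0 with a positive one. The same held for 7 of the 10 leukocyte markers (70%), again with 0 positive, beside 11.1% of all tested genes called negative. Median terms were −1.36 and −2.01 in these 2 lists, and their part in the interactions of the members was not tested.

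Other genes of lysosomal breakdown were taken from lists of the pathway. Of 29 other hydrolases, ethanol raised 3 and lowered 1 in WT (13.8%, beside 8.72% of all tested genes), and raised 9 and lowered 1 in *Ahr* HKO (34.5%, beside 31.2%). *Ggh*, gamma-glutamyl hydrolase, was at 6.13, 6.43 and 5.89 CPM in WT-con and 12.7, 11.4 and 12.4 in WT-EtOH (log2 FC 0.98 ± 0.11, adjusted *P* = 0.00453), and at 4.54, 6.09 and 4.13 and 8.62, 9.11 and 8.97 in the *Ahr* HKO groups (0.85 ± 0.17, adjusted *P* = 0.0107). It was higher with ethanol in both genotypes with no overlap. Between the genotypes on the control diet 7 of the 29 were called (24.1%, beside 29.7% of all tested genes). In all, 6 were lower in *Ahr* HKO-con than in WT-con (20.7%, beside 14.4%). Among them was *Naglu*, which cleaves heparan sulfate (log2 FC −0.79 ± 0.10, adjusted *P* = 0.00229), and 1 gene was higher. That 1 was *Ctse*, the aspartic protease cathepsin E, at 0.0873, 0 and 0.123 CPM in WT-con and 0.340, 0.0954 and 0.0637 in WT-EtOH, and at 17.9, 12.5 and 21.98 in *Ahr* HKO-con and 38.8, 34.5 and 26.7 in *Ahr* HKO-EtOH. Its WT levels were near the floor, and its calls between genotypes had an adjusted *P* of 0.000614 on the control diet and 0.00236 on ethanol.

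Of 20 tested genes for other membrane and transport proteins, ethanol raised 2 and lowered 2 in WT (20%, beside 8.72% of all tested genes) and raised 3 and lowered 4 in *Ahr* HKO (35%, beside 31.2%). *Slc11a1*, a metal transporter of phagocyte lysosomes, was at 22.6, 15.1 and 11.9 CPM in *Ahr* HKO-con and 4.98, 5.83 and 5.41 in *Ahr* HKO-EtOH (log2 FC −1.61 ± 0.24, adjusted *P* = 0.0044). *Laptm5* (−0.95 ± 0.29, adjusted *P* = 0.0424) and *Cd68* (−0.91 ± 0.25, adjusted *P* = 0.0298), which are also expressed in macrophages, fell as well, and both calls were lost without any liver but *Ahr* HKO-con replicate 3 (adjusted *P* of 0.0694 to 0.105 and 0.0684 to 0.0846). Without *Ahr* HKO-con replicate 1 the log2 FC of *Laptm5* was −0.57. The macrophage markers given above fell in the same livers, and their part was not tested. *Abca2*, a lipid transporter, was at 91.6, 94.8 and 90.95 CPM in WT-con and 49.9, 52.02 and 66.4 in WT-EtOH, and at 48.4, 64.5 and 49.2 and 80.9, 67.99 and 79.8 in *Ahr* HKO-con and *Ahr* HKO-EtOH. It fell with ethanol in WT (−0.72 ± 0.12, adjusted *P* = 0.0169) and rose in *Ahr* HKO (0.50 ± 0.14, adjusted *P* = 0.0387). The first call was lost without any WT-con liver (0.0581 to 0.0673) and the second without *Ahr* HKO-con replicate 1 or 3 or *Ahr* HKO-EtOH replicate 1 or 3 (0.0949 to 0.114), while the interaction held without any 1 liver. It was 1.22 ± 0.20 (adjusted *P* = 0.00222).

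Of 14 other tested V-ATPase genes, none was called with ethanol in WT and 2 were in *Ahr* HKO (14.3%, beside 31.2% of all tested genes). *Atp6v0d2*, a subunit form of macrophages and osteoclasts, was at 7.94, 9.08 and 10.6 CPM in *Ahr* HKO-con and 2.79, 0.756 and 0.789 in *Ahr* HKO-EtOH (log2 FC −2.64 ± 0.50, adjusted *P* = 0.0096, and −3.57 without *Ahr* HKO-EtOH replicate 1). *Atp6v0c* was at 162 CPM in WT-EtOH replicate 2 and at 155 and 152 in *Ahr* HKO-EtOH replicates 2 and 3, and at 1.97 to 5.57 in the other 9 livers. The pseudogene *Atp6v0c-ps2* was near 0 in those 3 livers and at 121 to 165 in the other 9, and both together were at 124 to 170.1 in all 12. In sum they were at 144 to 170.1 CPM in *Ahr* HKO-con and 138 to 156 in *Ahr* HKO-EtOH, which overlap, so the sum shows no rise. The call for *Atp6v0c*, 1 of the 2 in *Ahr* HKO, is therefore uncertain, since reads of the gene and its pseudogene cannot be told apart in these counts.

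Among 9 genes for delivery by mannose 6-phosphate receptors and related sorting, *Sort1*, the sorting receptor sortilin, was at 30.4, 25.4 and 22.9 CPM in WT-con and 19.4, 13.02 and 21.9 in WT-EtOH. It was at 3.99, 6.06 and 2.44 in *Ahr* HKO-con and 17.1, 17.7 and 13.8 in *Ahr* HKO-EtOH. Every *Ahr* HKO-con liver was below all others, with log2 FCs of −2.65 ± 0.31 against WT-con (adjusted *P* = 0.00171), 1.96 ± 0.31 for ethanol in *Ahr* HKO (adjusted *P* = 0.00553) and 2.50 ± 0.40 for the interaction (adjusted *P* = 0.00208). Ethanol raised 2 of the 9 in WT (22.2%, beside 8.72% of all tested genes called and 4.24% called higher). It raised 2 and lowered 1 in *Ahr* HKO (33.3%, beside 31.2%).

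Of 18 tested genes of TFEB and mTORC1 control, ethanol raised 1 and lowered 1 in WT (11.1%, beside 8.72% of all tested genes) and raised 2 and lowered 4 in *Ahr* HKO (33.3%, beside 31.2%), and 7 had an interaction (38.9%, beside 22.3%). *Tfeb*, a transcription factor of lysosomal genes, was at 9.13, 9.07 and 9.71 CPM in WT-con and 8.38, 9.78 and 8.39 in WT-EtOH, and at 7.56, 6.89 and 6.01 in *Ahr* HKO-con and 9.61, 10.8 and 11.5 in *Ahr* HKO-EtOH. Its *Ahr* HKO-con livers were the lowest of the 12. It was lower in *Ahr* HKO-con than in WT-con (log2 FC −0.45 ± 0.13, adjusted *P* = 0.0355), rose with ethanol in *Ahr* HKO (0.64 ± 0.14, adjusted *P* = 0.0138) and had an interaction of 0.71 ± 0.17 (adjusted *P* = 0.0134). The first call was lost without any liver but *Ahr* HKO-con replicate 1 (0.0684 to 0.108), the second without *Ahr* HKO-EtOH replicate 3 (0.0526), and the interaction held without any 1 liver but not on log2(FPKM + 1) without quantile normalization (adjusted *P* = 0.122). *Tfe3*, its paralog, was at 25.3, 22.9 and 21.4 CPM in WT-con and 28.8, 28 and 27.8 in WT-EtOH, and at 46.2, 37.5 and 39.6 in *Ahr* HKO-con and 28.5, 32.3 and 34.4 in *Ahr* HKO-EtOH. *Ahr* HKO-con was higher than WT-con (0.82 ± 0.11, adjusted *P* = 0.00291) and *Tfe3* fell with ethanol in *Ahr* HKO (−0.37 ± 0.12, adjusted *P* = 0.0482), the latter lost without any 1 of the 6 livers (0.053 to 0.129). *Rragd*, a Rag GTPase that recruits mTORC1 to lysosomes, was at 2.07, 1.73 and 1.78 CPM in WT-con and 5.29, 3.55 and 3.93 in WT-EtOH, and at 1.32, 2.05 and 1.77 in *Ahr* HKO-con and 1.76, 1.77 and 1.51 in *Ahr* HKO-EtOH. It was highest in the 3 WT-EtOH livers, as was *Cd63*, with a log2 FC of 1.19 ± 0.21 for ethanol in WT (adjusted *P* = 0.0193) and −1.34 ± 0.22 for the genotypes on ethanol (adjusted *P* = 0.0457). These calls were lost without any WT-con liver (0.0565 to 0.0798) and without any 1 of the 6 livers (0.062 to 0.185). Of 8 listed cathepsin inhibitors only *Cst3* and *Cstb* had enough reads to test, and neither was called.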

How the data were processed

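RNA-seq of 12 whole mouse livers, 3 in each of 4 groups, was analysed from 1 table. Groups and replicate numbers came from the sample titles. The library names hold other numbers, which were not used as replicate numbers. Poly(A) RNA was sequenced as stranded paired-end libraries, and the submitters' processing notes name FastQC 0.11.7, Trimmomatic 0.38, HISAT2 2.1.0, Bowtie2 2.3.4.1 and StringTie 1.3.4d with mm10, without their roles. Raw counts of reads on each gene, FPKM values scaled to gene length and library size, and TPM values were deposited, and the results do not use the TPM. How reads shared between genes were counted is not given in the sources used here, and counts on genes with near-identical copies are therefore uncertain.

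Counts of the whole table were fitted with edgeR 4.0.16 in R 4.3.3 (TMM factors of the 12 libraries, filterByExpr over the 4 groups, quasi-likelihood F test, Benjamini-Hochberg over the 14038 tested genes, called at an adjusted *P* under 0.05). Each pair of groups was fitted with its 6 libraries and the interaction with all 12. SE is the log2 FC over the square root of F. The p-values measure the spread between livers, which exceeded the sampling noise: the chi-square statistic per gene between replicates was 68 to 310, and none of the 66 pairs of libraries was identical. The counting floor was 3 reads, and the script was tested on simulated data. A permutation of 3 against 3 livers cannot reach an exact p below 0.1.

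The members and the other gene lists were chosen with earlier results of these data known. Every member was named, so that the rule of up to 8 called members per direction was passed by *Ctsh*, the ninth that was lower in *Ahr* HKO-con, and values were given for *Ctsb*, *Ctsd*, *Ctsl*, *Lamp1*, *Lamp2*, *Lipa*, *Npc1*, *Tfeb* and *Tfe3* in every library, with up to 4 called genes per other list. Alternatives were DESeq2 1.42.0, upper-quartile scaling, other filters, 1 fit of all libraries, a replicate block, limma 3.58.1 on quantile-normalized and on unadjusted log2(FPKM + 1), an FC above 1.5, and each liver left out. TMM factors of the 6 compared libraries were added after seeing the data. Shared 50-base stretches were counted in GENCODE vM21 transcripts on both strands. Matches on the opposite strand are therefore included, although the libraries were stranded. Promoter windows of 4 members, *Ctsb*, *Ctsh*, *Npc1* and *Atp6v1h*, were not used here. The other 28 members had 31 windows, and 29 of these matched a transcript of the gene on its strand.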

Additional observations from a re-analysis of the deposited data

Results flagged for a closer look

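For 9 of the 32 lysosomal genes (28.1%) the effect of ethanol differed between the genotypes, beside 22.3% of all tested genes. The calls were made on the interaction term of all 12 libraries (edgeR quasi-likelihood, adjusted *P* under 0.05). This term is the log2 FC in *Ahr* HKO minus that in WT, given ± SE. Of the 9 calls, 3 held in every fit without 1 liver. The term was −2.70 ± 0.40 for *Cd63*, with ethanol higher in 3 of 3 WT livers and overlapping groups in *Ahr* HKO. For *Lgmn* it was −1.64 ± 0.31 and for *Ctss* −1.66 ± 0.51, with all 3 *Ahr* HKO-EtOH livers below the *Ahr* HKO-con livers and overlapping groups in WT. *Ctsl* had −1.17 ± 0.33, and its value in WT-EtOH replicate 1 stood above the other WT livers. *Hexa* had −0.68 ± 0.23, with ethanol higher in 3 of 3 livers of both genotypes. The positive terms were 0.90 ± 0.25 for *Npc1*, 0.79 ± 0.22 for *Gm2a*, 0.68 ± 0.20 for *Neu1* and 0.56 ± 0.14 for *Mcoln1*. In the last 3 of these all *Ahr* HKO-EtOH livers were above the *Ahr* HKO-con livers, and in *Npc1* all WT-EtOH livers were below the WT-con livers. Beyond the fits that left out 1 liver, groups of 3 were not tested for single samples that stand apart.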

How the results depend on the processing

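No called member changed direction under any alternative run. DESeq2 with its own size factors called 9 members for ethanol in WT and 4 for the genotypes on ethanol, where edgeR called 4 and 1, and over all genes it called 2335 and 1511, where edgeR called 1224 and 149. On log2(FPKM + 1) with limma the members called were 10 and 2, beside 1883 (79.6% of them higher) and 382 (18.6% higher) over all genes, and with all 12 libraries in 1 fit the genotypes on ethanol had 2, beside 575. Requiring an FC above 1.5 left 4 of 13 for the genotypes on the control diet. Leaving out 1 liver gave 2 to 5, 4 to 13, 6 to 10, 0 to 1 and 3 to 10 calls for ethanol in WT, ethanol in *Ahr* HKO, the genotypes on the control diet, the genotypes on ethanol and the interaction. The 39 calls were refitted 288 times without 1 liver, and 114 of these fits lost the call. By setting, the replicate block lost 11 of 39, each limma fit 7, no filter on low counts 5, upper-quartile scaling 4, all 12 libraries in 1 fit 4 of 30, TMM factors of the 6 libraries 1 of 30, and DESeq2 and a minimum of 10 counts in every library 0. The replicate numbers were not taken to pair the livers. Same-numbered deviations correlated at −0.136 to 0.307, with no comparison over 0.1 in all 3 pairs. Between the genotypes on ethanol, 2 of 3 pairs were over 0.1. There a replicate block called 247 of all genes, where the fit without it called 149. In the other comparisons the block called fewer, such as 539 beside 1224 for ethanol in WT. What same-numbered livers shared on ethanol was not tested. The fit with a replicate block called 2, 8, 9, 1 and 9 members in the same order. The cause of these changes was not tested. All members were above the floor of 3 counts in every library, and the effect of depth on the calls was not tested.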
